A study of Mus musculus with 9 samples.

Results

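The genes described here present peptides on MHC class II, the surface molecules that show fragments of extracellular protein to CD4+ T cells. They were chosen as a list of 8 symbols, H2-Aa, H2-Ab1, H2-Eb1, H2-DMa, H2-DMb1, Cd74, Ciita and Cd86, and each was read from the brightest array row that carries its symbol alone. Of the 8 genes, 7 have such a row, among 22180 genes measured in this way. Cd74, the invariant chain that guides class II molecules to the endosome, has no row of its own and was not analysed here.

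The samples were 9 mouse kidneys in 3 groups of 3, measured as total RNA on whole-transcript arrays. The sham group was taken 3 weeks after a sham operation. In the CBDL group the common bile duct had been tied off 3 weeks earlier (common bile duct ligation), which stops bile flow and raises bile acids in blood and urine. The norUDCA-fed CBDL group received norursodeoxycholic acid (norUDCA), a side chain-shortened bile acid, in 5 days of prefeeding, and was then ligated and also sampled at 3 weeks. Labels give no strain, sex, age or batch, do not say whether feeding continued after the operation, and describe no sham group fed norUDCA. The title of the study asks whether norUDCA eases the kidney injury of ligated mice. Each array is called by its group and the number in its label. The sham arrays are sham_158, sham_159 and sham_160. Ligation without norUDCA is represented by CBDL_164, CBDL_165 and CBDL_170. The prefed, ligated mice gave norUDCA_CBDL_172, norUDCA_CBDL_175 and norUDCA_CBDL_179. Values per array are given in this order.

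Class II molecules are dimers of an alpha and a beta chain, assembled with the invariant chain, trimmed by cathepsins in endosomes and loaded with peptide by the H2-DM dimer. Dendritic cells, B cells and macrophages carry them at rest, and interferon gamma can switch them on in other cells, the kidney tubule included. The switch is CIITA, a coactivator that binds no DNA itself and docks on the RFX, CREB and NF-Y factors held at the X and Y boxes of class II promoters. CD86 is a surface ligand that gives T cells the second, costimulatory signal through CD28.

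The X and Y boxes are shown because they are the shared switch of the chain genes. RefSeq entries (GRCm38.p6) were matched for 4 of the 8 genes (H2-Aa, H2-Eb1, H2-DMb1 and H2-DMa, the last with 2 starts). The 250 bases before the start of H2-Aa (chr17:34287824-34288073, minus strand), H2-Eb1 (chr17:34305617-34305866, plus strand), H2-DMb1 (chr17:34152941-34153190, plus strand) and the neighbouring H2-DMb2 (chr17:34144999-34145248, plus strand) read, 5′ to 3′, with the searched X box motifs and the core of the Y box in capitals:
H2-Aa: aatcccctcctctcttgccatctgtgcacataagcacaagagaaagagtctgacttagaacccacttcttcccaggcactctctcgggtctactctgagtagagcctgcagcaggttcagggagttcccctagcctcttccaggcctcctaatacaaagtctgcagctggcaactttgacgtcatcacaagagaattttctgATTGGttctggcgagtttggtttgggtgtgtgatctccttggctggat
H2-Eb1: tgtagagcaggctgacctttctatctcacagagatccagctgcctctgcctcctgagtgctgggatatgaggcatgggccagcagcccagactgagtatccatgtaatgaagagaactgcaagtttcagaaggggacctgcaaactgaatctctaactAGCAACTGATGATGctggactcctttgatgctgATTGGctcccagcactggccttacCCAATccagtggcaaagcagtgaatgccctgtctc
H2-DMb1: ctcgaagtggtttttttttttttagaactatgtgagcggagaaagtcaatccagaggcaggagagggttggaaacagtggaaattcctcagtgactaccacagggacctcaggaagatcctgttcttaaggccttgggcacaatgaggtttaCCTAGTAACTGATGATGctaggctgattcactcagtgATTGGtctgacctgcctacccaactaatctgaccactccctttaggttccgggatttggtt
H2-DMb2: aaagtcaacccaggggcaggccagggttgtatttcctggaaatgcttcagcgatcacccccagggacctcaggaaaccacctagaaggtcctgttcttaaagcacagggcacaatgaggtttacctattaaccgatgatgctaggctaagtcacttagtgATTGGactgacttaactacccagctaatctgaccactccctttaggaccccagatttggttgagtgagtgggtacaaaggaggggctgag

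The Y box core ATTGG, read on either strand, lies in each of these windows and in 33.8% of the 32851 promoter windows of 250 bases. The longer Y box CTGATTGG lies in those of H2-Aa and H2-Eb1, 43 and 54 bases before the start, and in 3.83% of all windows. It also lies 38 bases before the start of the neighbouring H2-Oa, and the ATTGG core lies 52 bases before that of H2-Ob. Both genes had a lower mean log2 signal in CBDL than in sham (differences of -0.35 and -0.59, given below). A consensus of the X1 box matched H2-DMb1, as CCTAGTAACTGATG, and 6 windows in all (0.0183%). An X box variant chosen after these sequences were read, which overlaps the X1 box, matched H2-Eb1 as AGCAACTGATGATG and H2-DMb1 as AGTAACTGATGATG, and 3 windows in all (0.00913%). As it was chosen with these windows in view, its matches here and its share are no test of the motif. Both strands were searched. Neither of the searched X box motifs matched in the windows of H2-Aa and H2-DMb2, and looser forms were not searched. The gap between this X box variant and the next ATTGG core was 19 bases in H2-Eb1 and 20 in H2-DMb1. Of the H2-DMa starts, 1 has the ATTGG core 193 bases before it. A match is a run of letters and not a measured binding site.

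The kidney label was checked against tubule and glomerulus markers. The mean log2 signal of 7 such markers, Umod, Slc12a1 and Lrp2 among them, was between 10.6 and 11.52 on every array. The lowest of these means was that of CBDL_165. On the first principal component of all genes (58.3% of the variance), CBDL_165 (57) lay farthest from the sham arrays (-42.2 to -34.1). CBDL_164 was at 40.6 and CBDL_170 at 26.1. On the second (13% of the variance), sham_159 (-34.5) and CBDL_165 (-22.9) stood apart from the other arrays (3.42 to 12). Because CBDL_165 also differs from its group in the class II genes, results that turn on it are given with and without it. It was singled out partly from the values then tested, so adjusted p-values without it are descriptions and not independent tests. Differences below are between mean log2 signals, from limma over all 22180 genes, with a standard error (SE), and a gene is said to rise or fall where its Benjamini-Hochberg adjusted p was under 0.05 (two-sided). The labels do not say how replicates were obtained, so p-values measure the spread between these samples, which may be technical. With 3 arrays against 3, an exact permutation test of a single gene cannot go below 0.1.

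**Figure D1:**
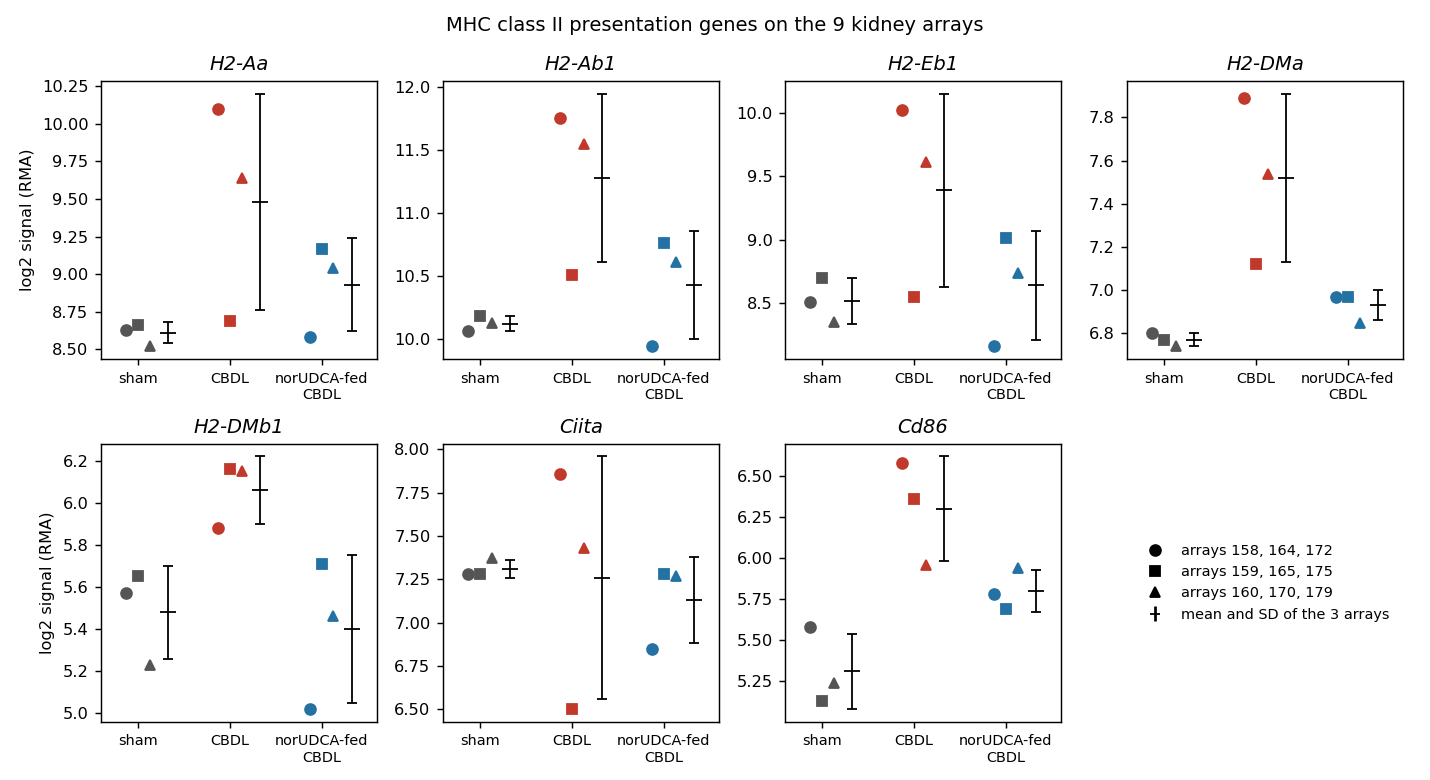
Log2 signal (RMA) of each measured class II presentation gene on the 9 arrays, with the group mean and SD of 3 arrays beside the points. H2-Aa, H2-Ab1, H2-Eb1 and Ciita are lower on CBDL_165 than on CBDL_164 and CBDL_170, while for Cd86 and H2-DMb1 CBDL_165 is not the lowest CBDL array.

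After ligation the presentation genes were higher on the whole, and 4 of the 7 rose: H2-Ab1, H2-DMa, H2-DMb1 and Cd86. Over all genes 10.3% rose and 11.5% fell in this comparison. None of the 7 fell, and 6 had a difference above 0, against 41.7% of all genes. Their median difference was 0.87 against -0.06 over all genes. Ciita was the gene below 0. The CBDL arrays all lay above the sham arrays for 5 of the 7, against 15.6% of all genes (35.6% did not overlap in either direction). In whole kidney RNA, more or fewer cells of a type and more or less RNA per cell cannot be told apart. Without CBDL_165, 5 rose (H2-Aa and H2-Eb1 joined and H2-DMb1 left), and 2 (H2-DMa and Cd86) rose when sham_158, sham_159, sham_160, CBDL_164 or CBDL_170 was left out in turn. Fewer of all genes were called in these settings as well. The share called in either direction was 21.8% in the main fit and 17.1% without CBDL_165. In the settings with 2 calls it lay between 17.1% (without CBDL_164) and 20.8% (without CBDL_170).

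H2-Ab1 encodes the beta chain of the I-A molecule, the class II dimer every common mouse strain makes. Its log2 signal was 10.06, 10.18 and 10.13 in sham, 11.76, 10.51 and 11.55 in CBDL, and 9.94, 10.76 and 10.61 in norUDCA-fed CBDL. Every CBDL array was above every sham array, with CBDL_165 the nearest to them, and the norUDCA-fed arrays overlapped both groups. H2-Ab1 differed by 1.15 after ligation (2.22-fold, SE 0.31, limma adjusted p = 0.023), and between 0.91 and 1.53 with 1 array left out. Its call ended without sham_158 (adjusted p = 0.0647), sham_159 (0.0571), sham_160 (0.0596), CBDL_164 (0.0862) or CBDL_170 (0.0742), and the difference without CBDL_165 was 1.53.

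H2-Aa is the alpha partner of H2-Ab1. It read 8.63, 8.66 and 8.52 in sham, 10.1, 8.69 and 9.64 in CBDL, and 8.58, 9.17 and 9.04 in norUDCA-fed CBDL. CBDL_165 lay just above the highest sham array, so the groups did not overlap but the spread within CBDL (SD 0.72, n = 3) was far wider than within sham (SD 0.07, n = 3). The difference of 0.87 (SE 0.3) did not pass limma over all genes (adjusted p = 0.0667), and without CBDL_165 it was 1.26 and passed (adjusted p = 0.00246). With 1 array left out in turn, the difference ran from 0.56 to 1.26 (limma adjusted p up to 0.2).

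H2-Eb1, the beta chain of I-E, behaved alike. It read 8.51, 8.7 and 8.35 in sham, 10.02, 8.55 and 9.61 in CBDL, and 8.16, 9.01 and 8.74 in norUDCA-fed CBDL. CBDL_165 fell inside the sham range, so the groups overlapped. The difference was 0.87 (SE 0.34, limma adjusted p = 0.101), and 1.29 without CBDL_165 (adjusted p = 0.0065). With 1 array left out in turn, it ran from 0.56 to 1.29 (limma adjusted p up to 0.291). The I-E alpha chain gene H2-Ea, which strains of the b haplotype cannot express, read 3.55 to 4.72 over the 9 arrays. That is under 5.2, the level that bounds the dimmest 33.3% of genes, where a signal may be background.

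H2-DMa encodes the alpha chain of H2-DM, which exchanges the invariant chain remnant for peptide. Its signal was 6.8, 6.77 and 6.74 in sham, 7.89, 7.12 and 7.54 in CBDL, and 6.97, 6.97 and 6.85 in norUDCA-fed CBDL. All CBDL arrays were above all arrays of both other groups, CBDL_165 again the lowest. The rise of 0.74 (1.68-fold, SE 0.17, limma adjusted p = 0.00981) held in each of 17 alternatives, with adjusted p between 0.00112 and 0.0433.

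H2-DMb1, the beta chain of H2-DM, read 5.57, 5.65 and 5.23 in sham, 5.88, 6.16 and 6.15 in CBDL, and 5.02, 5.71 and 5.46 in norUDCA-fed CBDL. Here CBDL_165 was the highest of the CBDL arrays. Its rise of 0.58 (SE 0.18, limma adjusted p = 0.0478) was close to the threshold and was called in 6 of 17 alternatives (adjusted p 0.0239 to 0.15). It was lost without sham_158, sham_159, sham_160, CBDL_164, CBDL_165, CBDL_170 or norUDCA_CBDL_179. H2-DMb2, a close copy that lies next to it, read 5.15, 5.08 and 4.66 in sham and 7.15, 5.89 and 7.16 in CBDL, with CBDL_165 the lowest. It rose by 1.77 (SE 0.32, limma adjusted p = 0.00335), and how far probes of the copies read each other was not tested.

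Cd86 was low in sham, at 5.58, 5.13 and 5.24, and read 6.58, 6.36 and 5.96 in CBDL and 5.78, 5.69 and 5.94 in norUDCA-fed CBDL. The norUDCA-fed arrays lay between the other groups without touching either. Cd86 rose by 0.99 after ligation (1.98-fold, SE 0.17, limma adjusted p = 0.00267), and the call held in each of 17 alternatives (adjusted p 0.000975 to 0.0353). CBDL_165 was not low for Cd86, unlike for the chain genes.

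Ciita, the coactivator, showed no shift of the group mean. Its signal was 7.28, 7.28 and 7.37 in sham, 7.86, 6.5 and 7.43 in CBDL, and 6.85, 7.28 and 7.27 in norUDCA-fed CBDL. CBDL_164 was the highest of the 9 arrays and CBDL_165 the lowest. The difference between CBDL and sham was -0.05, with a 95% confidence interval from -0.69 to 0.59 (SE 0.29, limma adjusted p = 0.926), wide enough to hold a change of 1.5-fold in either direction. Without CBDL_165 it turned to 0.34 (adjusted p = 0.238).

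**Figure D2:**
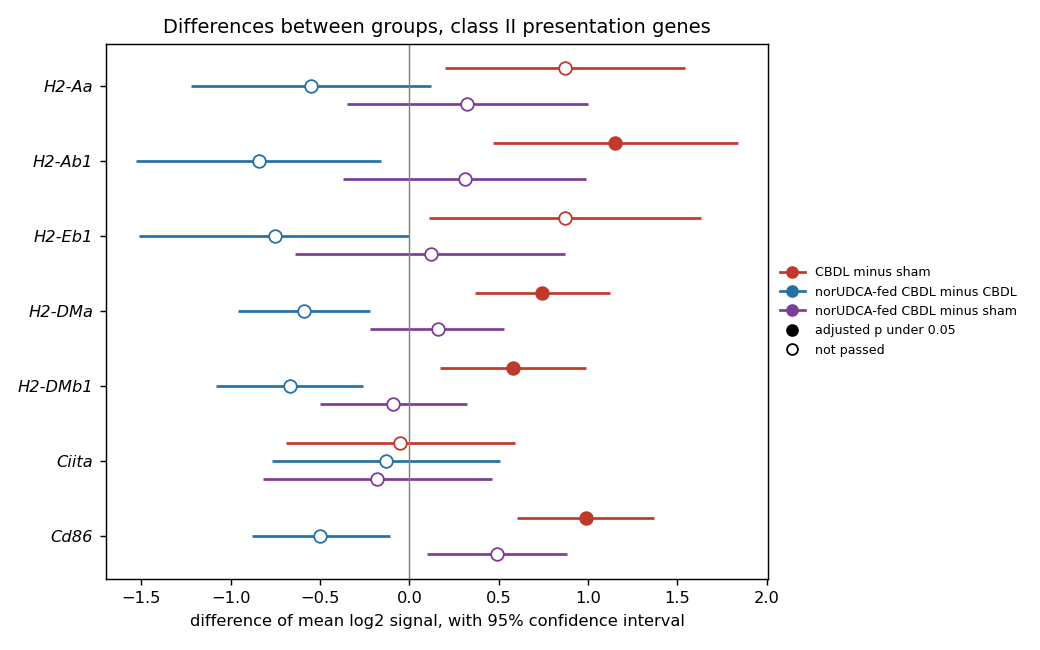
Difference of mean log2 signal with its 95% confidence interval for the 7 genes in the 3 comparisons, filled where the adjusted p was under 0.05. Filled points are those of H2-Ab1, H2-DMa, H2-DMb1 and Cd86 in CBDL minus sham, and every norUDCA-fed CBDL minus CBDL point lies left of 0.

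With norUDCA feeding before ligation, all 7 genes had lower means than in CBDL (49.2% of all genes had a higher one), and none passed the limma test of the difference (4 had an unadjusted p under 0.05). Over all genes 3.2% fell and 3.61% rose. The median difference of the 7 was -0.59, against -0.0034 over all genes. H2-DMa differed by -0.59 (SE 0.17, adjusted p = 0.068), H2-DMb1 by -0.67 (SE 0.18, adjusted p = 0.0609) and Cd86 by -0.50 (SE 0.17, adjusted p = 0.133), and for these 3 genes the norUDCA-fed arrays all lay below the CBDL arrays, against 12.6% of all genes (24.2% did not overlap in either direction). H2-Ab1 differed by -0.84 (95% confidence interval -1.53 to -0.16, adjusted p = 0.152), H2-Eb1 by -0.75 (-1.51 to 0, adjusted p = 0.262) and H2-Aa by -0.55 (-1.22 to 0.12, adjusted p = 0.383), each with overlapping groups because CBDL_165 lay among the norUDCA-fed arrays. Ciita differed by -0.13 (-0.77 to 0.51, adjusted p = 0.885).

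The calls in this comparison depended on the arrays kept, on CBDL_165 most of all, and on the setting. With all 9 arrays, array weights called 4 of the 7 genes and the filter on dim rows 2, as the closing section gives. CBDL_165 was singled out partly for its low class II values, so leaving it out favours a fall and is a description. Without CBDL_165, 4 of the 7 genes fell, H2-Aa by 0.94 (limma adjusted p = 0.0389), H2-Ab1 by 1.22 (adjusted p = 0.0265), H2-Eb1 by 1.17 (adjusted p = 0.0392) and H2-DMa by 0.79 (adjusted p = 0.0205), while 3.13% of all genes were called in either direction. Without CBDL_170 Cd86 alone fell, by 0.67 (adjusted p = 0.0323), while 9.21% of all genes were called. With any 1 of the other 7 arrays left out none of the 7 genes was called. The share of all genes called then ran from 1.25% (without norUDCA_CBDL_175) to 7.07% (without sham_159). Over these leave-outs, the difference ran from -0.94 to -0.24 for H2-Aa (limma adjusted p up to 0.742). It ran from -1.22 to -0.6 for H2-Ab1, -1.17 to -0.44 for H2-Eb1 and -0.79 to -0.4 for H2-DMa. For H2-DMb1 it ran from -0.83 to -0.48 and for Cd86 from -0.67 to -0.36.

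Set against sham, the norUDCA-fed CBDL group showed no call among the 7 genes (limma, 1 with an unadjusted p under 0.05, Cd86), while 1.82% of all genes rose and 1.37% fell. The median difference was 0.16, against -0.05 over all genes, and 5 of the 7 were above 0, against 39.9% of all genes. Cd86 was the farthest from sham, at 0.49 (95% confidence interval 0.1 to 0.88, SE 0.17, adjusted p = 0.192), and its 3 norUDCA-fed arrays lay above the 3 sham arrays, as in 8.96% of all genes. The arrays of H2-DMa did not overlap either, with a difference of 0.16 (SE 0.17). H2-Ab1 at 0.31 (-0.37 to 0.99) and H2-Aa at 0.32 (-0.35 to 1) had intervals that hold both 0 and a 1.5-fold rise. All 3 comparisons share their arrays in pairs, so their values are not independent of each other.

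**Figure D3:**
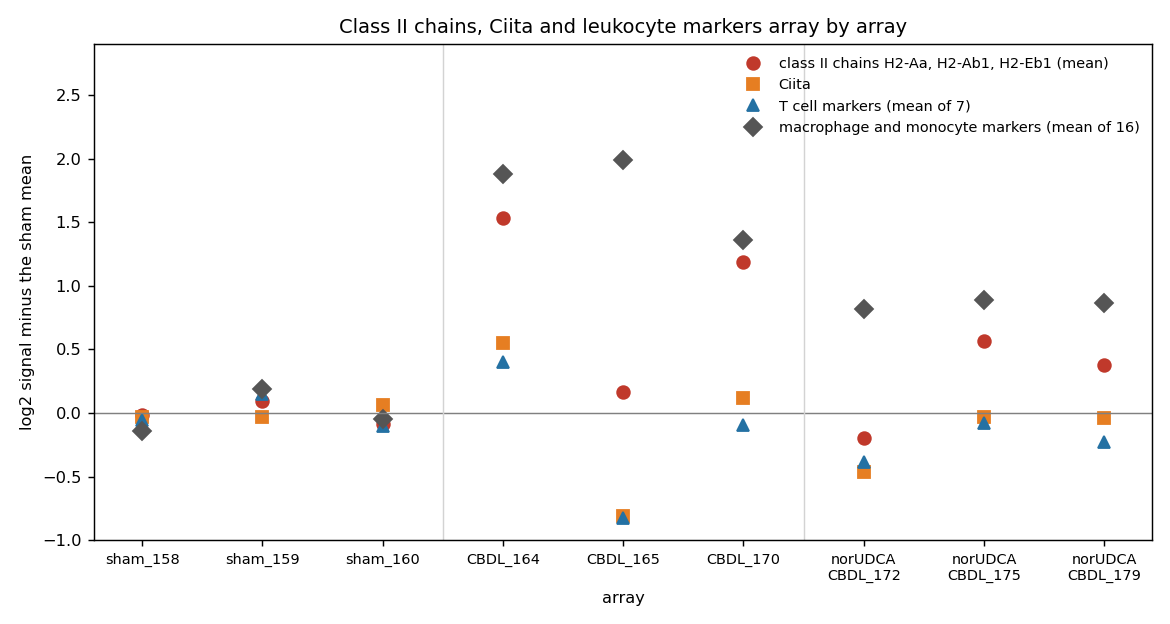
Log2 signal minus the sham mean on each of the 9 arrays for the mean of the 3 class II chains, Ciita, 7 T cell markers and 16 macrophage and monocyte markers. On CBDL_165 the macrophage markers are at their highest while the class II chains are near the sham level and Ciita and the T cell markers are at their lowest.

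The chain genes varied together from array to array, also within a group. As deviations from the mean of their own group, H2-Aa, H2-Ab1 and H2-Eb1 were at 0.62, 0.48 and 0.62 on CBDL_164, -0.79, -0.76 and -0.84 on CBDL_165, and 0.17, 0.28 and 0.22 on CBDL_170. In the norUDCA-fed group they were at -0.35, -0.49 and -0.48 on norUDCA_CBDL_172 and above 0 on the other two arrays. Ciita moved beside them, at 0.6, -0.77 and 0.17 on the CBDL arrays and -0.29, 0.15 and 0.14 on the norUDCA-fed arrays. In sham, where deviations were small, it did not: Ciita was at -0.03, -0.03 and 0.06 and the mean of the chains at -0.01, 0.09 and -0.08. H2-DMb1 differed in order from the chains in CBDL (-0.18, 0.09 and 0.09) and shared their order in the norUDCA-fed group (-0.38, 0.32 and 0.06). Cd86 was at 0.28, 0.06 and -0.34 in CBDL and -0.03, -0.11 and 0.14 in the norUDCA-fed group, an order unlike that of the chains in both.

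A ranking of all other genes by the root mean square difference of these deviations from the mean of the 3 chains, chosen after the values were seen and over 9 arrays, put Cd3e, a chain of the T cell receptor complex, first at 0.10, the reductase gene Akr1c12 at the same value, and Ciita next, also at 0.10. The water channel gene Aqp3, which is no immune gene, followed at 0.12. After it came H2-DMb2, Mogat2 and H2-Q5 at 0.14 each and Kcnk15 at 0.15. The median over 22177 genes was 0.41. H2-DMa came at 0.26 (rank 241), H2-DMb1 at 0.40 (rank 8918) and Cd86 at 0.43 (rank 12893). Mrc1, a macrophage receptor, lay at 0.59 (rank 21581). The largest deviations of the 3 chains were those of CBDL_165 and CBDL_164, so the ranking leans on these arrays and is a description.

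By the rule for likeness over all 9 arrays, group differences included, the nearest genes were Igtp (root mean square difference 0.21 log2 units from the mean centred profile of the 3 chains) and Irgm2 (0.22), interferon-inducible GTPase genes, then the cytokine gene Il1b (0.24), Nlrc5 (0.25), the coactivator gene of MHC class I, and Fgl2 (0.26). Mir5103 and Gm4951 (0.26 each) and the chemokine gene Ccl5 (0.27) followed. Igtp read 6.44, 6.62 and 6.36 in sham, 7.88, 6.14 and 7.26 in CBDL, and 6.43, 6.86 and 6.47 in norUDCA-fed CBDL. It shared the low value on CBDL_165. The chains' profile is itself higher in CBDL, so genes chosen for likeness to it share that difference by construction, and it is given with no test. CBDL minus sham was 0.62 for Igtp, 0.74 for Il1b, 0.76 for Nlrc5 and 0.82 for Fgl2.

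**Figure D4:**
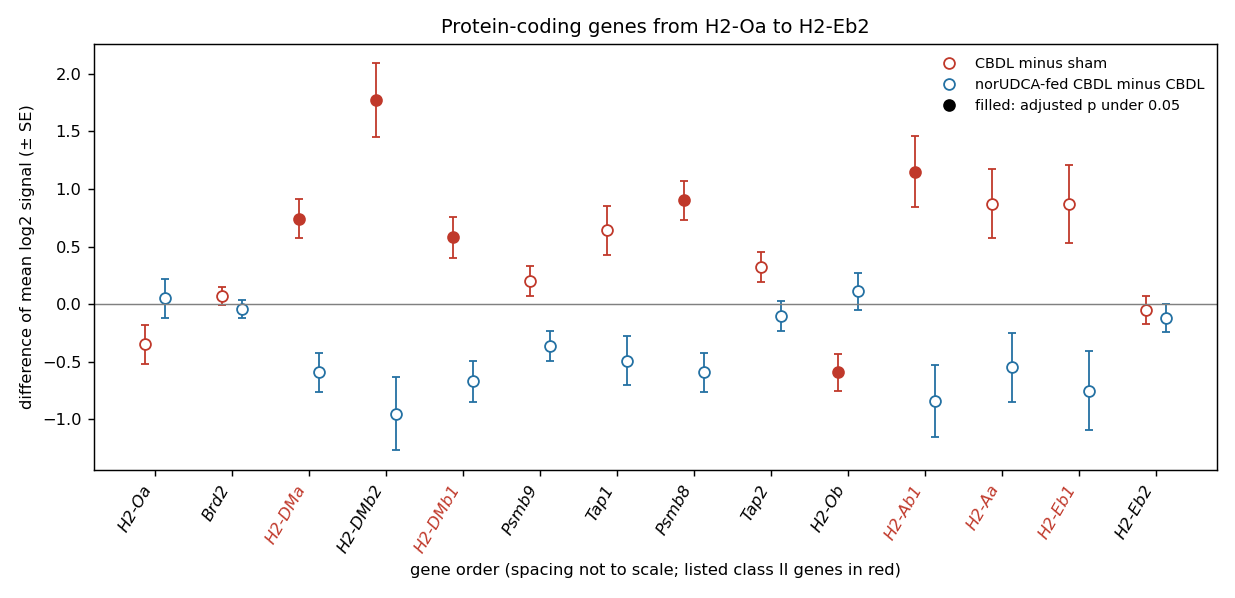
Difference of mean log2 signal (± SE) for the 14 protein-coding genes from H2-Oa to H2-Eb2 in their order on the reference, for CBDL minus sham and norUDCA-fed CBDL minus CBDL. H2-DMb2 is the highest after ligation, H2-Ob is the filled point below 0, and Brd2 and H2-Eb2 lie near 0.

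The 5 H2 genes of the list sit in 1 stretch of 14 protein-coding genes in RefSeq's mouse table (GRCm38.p6), ordered H2-Oa, Brd2, H2-DMa, H2-DMb2, H2-DMb1, Psmb9, Tap1, Psmb8, Tap2, H2-Ob, H2-Ab1, H2-Aa, H2-Eb1, H2-Eb2. After ligation 5 of the 14 rose and 1 fell, while over all genes 10.3% rose and 11.5% fell. H2-DMa, H2-DMb2 and Psmb8 were the 3 that rose without sham_158, sham_159, sham_160, CBDL_164 or CBDL_170, and 7 rose without CBDL_165. Beside the list's own genes these were H2-DMb2 and the immunoproteasome subunit gene Psmb8 at 0.90 (SE 0.17, limma adjusted p = 0.00415), and H2-Ob, the beta chain of H2-DO, which restrains H2-DM, at -0.59 (SE 0.16, adjusted p = 0.0249), a call lost without sham_159, sham_160 or CBDL_165. The H2-DO alpha chain gene H2-Oa was at -0.35 (adjusted p = 0.184). Brd2, a bromodomain gene between them, was at 0.07 (SE 0.08) and H2-Eb2 at -0.05. No gene of the stretch was called by limma in the other 2 comparisons (H2-DMb2 differed by -0.95 in norUDCA-fed CBDL against CBDL, adjusted p = 0.124). Against CBDL, 5 fell in the norUDCA-fed group without CBDL_165, 1, Psmb8, without sham_159, 7 with array weights and 3 with the filter on dim rows.

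**Figure D5:**
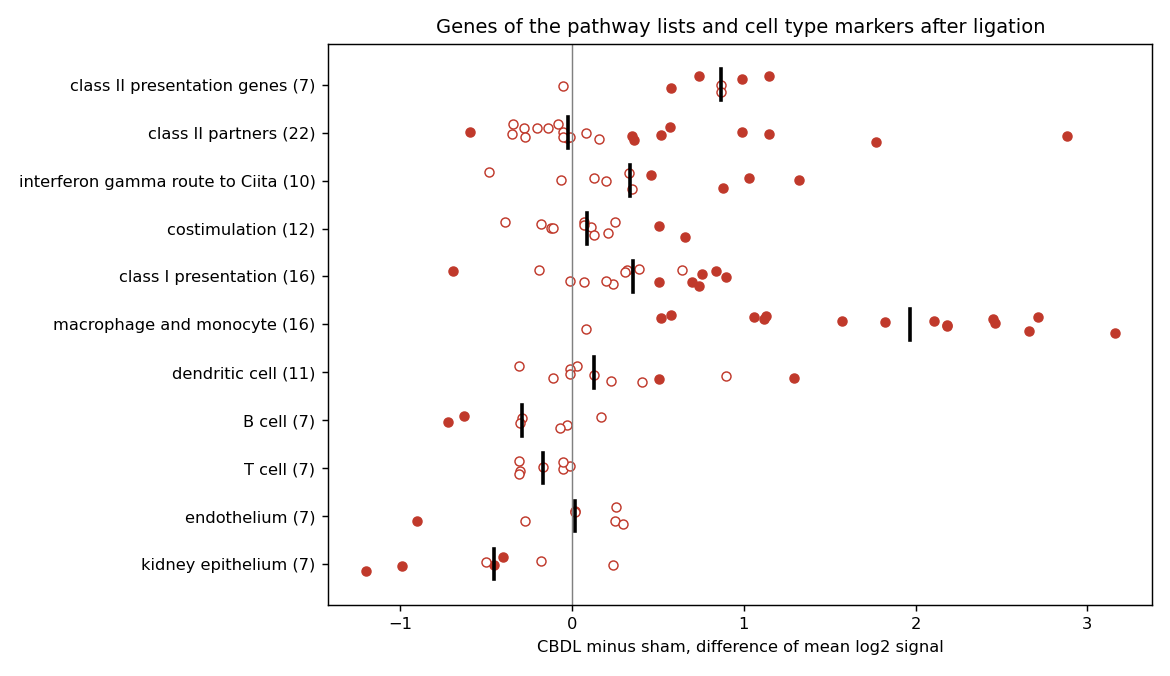
Difference of mean log2 signal between CBDL and sham for each gene of the pathway and marker lists, filled where the adjusted p was under 0.05, with the list median as a bar and the number of genes in brackets. Macrophage and monocyte markers lie farthest right, with a median of 1.97, and the medians of B cell, T cell and kidney epithelium markers are below 0.

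The counts of this and the following lists stand beside shares over all genes. After ligation 10.3% of all genes rose and 11.5% fell. Against CBDL, 3.61% rose and 3.2% fell in the norUDCA-fed group, and against sham 1.82% rose and 1.37% fell. Among 22 class II partners (chaperones, proteases, promoter factors and tetraspanins), 8 rose and 1, H2-Ob, fell after ligation, with a median difference of -0.02. The risers were H2-DMb2 and processing genes: Ctss, the cathepsin that cuts the invariant chain, differed by 2.88 (SE 0.19, limma adjusted p = 2.82e-05), Ctsd by 1.15, Ctsl by 0.57, and the tetraspanin gene Cd9 by 0.99. Ctsb, Lgmn and Ifi30, a thiol reductase of the endosome, rose by 0.35, 0.36 and 0.52. The promoter factor genes were not called: Rfx5 differed by -0.03, Rfxap by -0.01, Rfxank by -0.20, Nfya by -0.27, Nfyb by 0.08, Nfyc by -0.34 and Creb1 by -0.08. Against CBDL the norUDCA-fed group had lower Ctss, by -1.61 (adjusted p = 0.00655), Ctsd, by -0.64 (adjusted p = 0.0169), and Cd9, by -0.48 (adjusted p = 0.0271), the 3 partners that fell, and Ctss and Cd9 stayed above sham (1.27 and 0.52). Without norUDCA_CBDL_175, 1 partner fell against CBDL. Against sham, 1 rose without any 1 of sham_158, sham_159, sham_160, norUDCA_CBDL_172 and norUDCA_CBDL_175, and 0 without norUDCA_CBDL_179.

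On the interferon gamma route to Ciita, 4 of 10 measured genes rose after ligation and none fell, with a median of 0.34. They were the receptor chain genes Ifngr1 at 1.32 (SE 0.14, limma adjusted p = 0.0002) and Ifngr2 at 0.88, the transcription factor gene Irf1 at 1.03 and the kinase gene Jak2 at 0.46. Ifng itself was dim, between 4.24 and 5.34 on the 9 arrays, and differed by -0.48 (adjusted p = 0.0676). Ifngr1 (-0.56, adjusted p = 0.0496) and Ifngr2 (-0.57, adjusted p = 0.0423) fell in norUDCA-fed CBDL against CBDL, calls near the threshold. Of the list, 2 genes also fell without CBDL_170, 1 without norUDCA_CBDL_179, and 0 without any 1 of sham_158, sham_159, sham_160, CBDL_164, CBDL_165, norUDCA_CBDL_172 and norUDCA_CBDL_175. Ifngr1 rose against sham by 0.76 (adjusted p = 0.0234), a call lost without any 1 sham array, norUDCA_CBDL_172 or norUDCA_CBDL_179.

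Of 12 further costimulation genes, 2 rose after ligation, against 10.3% of all genes. They were Cd80, the twin ligand of Cd86, by 0.66 (SE 0.16, limma adjusted p = 0.0133) and Cd40 by 0.51 (SE 0.16, adjusted p = 0.0466). The median was 0.09, 7 of the 12 lay in the dimmest 33.3% of genes, and the count was 0 without sham_158 or CBDL_164 and 1 without sham_160, CBDL_165 or any 1 norUDCA-fed array. Of 16 class I presentation genes, 6 rose and 1 fell, with a median of 0.36. H2-K1 differed by 0.84 (SE 0.14, adjusted p = 0.0019), H2-Q4 by 0.70, Psmb10 by 0.74 and H2-T23, the gene that fell, by -0.69, a call lost without sham_159, CBDL_165 or norUDCA_CBDL_179. Against CBDL, H2-Q4 fell in the norUDCA-fed group (-0.53, adjusted p = 0.0349), and 0 class I genes fell without sham_160, CBDL_164 or any 1 norUDCA-fed array and 2 without sham_159 or CBDL_170.

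Markers of cells that carry class II at rest moved in different directions after ligation. Of 16 macrophage and monocyte markers 15 rose, and the mean of their log2 signals ran from 6.68 to 7.01 in sham, from 8.18 to 8.81 in CBDL and from 7.64 to 7.71 in norUDCA-fed CBDL. On CBDL_165 it was 8.81, the highest of the 9, although the mean of the 3 class II chains there was 9.25, against 10.62 on CBDL_164 and 10.27 on CBDL_170. Among them Itgam differed by 2.46, C1qc by 2.18, Fcgr1 by 2.11 and Laptm5 by 1.57. Against CBDL, 12 of the 16 fell in the norUDCA-fed group, a count that was 3 without CBDL_164, 7 without CBDL_165, 5 without norUDCA_CBDL_172, 2 without norUDCA_CBDL_175 and 7 without norUDCA_CBDL_179. Against sham 10 rose, and 5 without sham_160, norUDCA_CBDL_172 or norUDCA_CBDL_175, and 3 without norUDCA_CBDL_179.

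Of 11 dendritic cell markers, 2 rose after ligation, against 10.3% of all genes, and the list median was 0.13. They were the integrin gene Itgax by 1.29 (SE 0.21, limma adjusted p = 0.00156) and the transcription factor gene Batf3 by 0.51 (SE 0.14, adjusted p = 0.0243). The count was 1 without sham_159, sham_160, CBDL_164 or CBDL_165, and 4 without CBDL_170. Above 0 but not called were Clec10a (0.90), Cd83 (0.41), Zbtb46 (0.23), Cd209a (0.13) and Flt3 (0.03). Below 0 and not called were Xcr1 (-0.31), Itgae (-0.11), Ccr7 (-0.01) and Siglech (-0.01). Of the 11, 5 had an unadjusted limma p under 0.05. For 5, all CBDL arrays lay above all sham arrays, against 15.6% of all genes. Clec10a and Itgae lay in the dimmest 33.3% of genes. The list mean was 5.68 to 5.86 in sham, 5.87 to 6.15 in CBDL and 5.76 to 5.85 in norUDCA-fed CBDL. Itgax fell against CBDL by 0.95 (adjusted p = 0.0259), and no dendritic cell marker was called there without CBDL_164, CBDL_165 or any 1 norUDCA-fed array and 2 without CBDL_170.

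Of 7 B cell markers none rose after ligation and 2 fell, Cd79a by 0.72 (SE 0.13, limma adjusted p = 0.00291) and Cr2 by 0.63 (SE 0.11, adjusted p = 0.00227). The list mean was 5.12 to 5.16 in sham, 4.82 to 4.9 in CBDL and 4.86 to 5.06 in norUDCA-fed CBDL, and 5 of the 7, Ms4a1 and Pax5 among them, lay in the dimmest 33.3% of genes. Against CBDL, Cr2 rose in the norUDCA-fed group by 0.42 (adjusted p = 0.0459), a call that held with CBDL_164 left out and was lost without any 1 of the other 8 arrays. Against sham, Cd79a fell in the norUDCA-fed group by 0.58 (adjusted p = 0.0425), a call that held without CBDL_165 or CBDL_170 and was lost without any 1 of the other 7 arrays. None of 7 T cell markers was called by limma after ligation, and none had an unadjusted p under 0.05. Their mean was 5.64 to 5.89 in sham and 5.36 to 5.66 in norUDCA-fed CBDL, and in CBDL it was 6.14 on CBDL_164, 4.92 on CBDL_165 and 5.65 on CBDL_170, the highest and the lowest of all 9 arrays in the same group. Of the T cell markers, Cd3d and Cd2 lay in the dimmest 33.3% of genes. Of 7 kidney epithelium markers, 4 fell after ligation (median -0.45), and 2 without sham_158, sham_159, sham_160 or CBDL_165. Against CBDL, 3 of them rose in the norUDCA-fed group: Lrp2, an endocytic receptor of the proximal tubule, by 0.98 (limma adjusted p = 0.0181), the phosphate transporter gene Slc34a1 by 0.71 (adjusted p = 0.0208) and the distal tubule transporter gene Slc12a3 by 0.52. The call of Slc12a3 was at the threshold, with a limma adjusted p that rounds to 0.05. None of the 7 markers rose against CBDL without CBDL_164 or any 1 norUDCA-fed array. The part of these cell types in the class II differences was not tested.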

How the data were processed

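Each deposited value is the log2 signal of 1 array row. The submitters' processing notes name Partek 6.6 and RMA (robust multi-array average) as the tools the authors used. The labels' protocols give TRIzol for the RNA and the WT PLUS reagent kit for labelling. For array model, build, filters and batch steps, the procedure is not given in the sources used here. RMA shrinks differences of dim rows, and no detection call was used.

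Of 41345 rows, 23521 carry 1 symbol, 1814 several and 16010 none, and the brightest row per gene left 22180 genes. limma 3.58.1 (R 4.3.3) fitted 1 mean per group over all 9 arrays, with no replicate block or covariate and Benjamini-Hochberg adjustment over all genes. All 7 genes, up to 4 lowest-p genes per list and comparison, markers of dendritic, B and T cells and the 8 genes nearest the chains are named by rule. Further genes are named with their values already seen. The genes and lists were chosen with earlier results of these data known. The fit was tested on simulated data with 100 planted changes of each size per comparison. It recovered 18 to 34 of those of 1.5-fold and 68 to 77 of those of 2-fold. A gene that was not called may therefore still differ. The simulated spread was drawn from all genes (median SE 0.14 after ligation) and was equal in all groups. H2-Aa, H2-Ab1, H2-Eb1 and Ciita had SEs from 0.29 to 0.34, so for these genes the recovered shares may be too high. Promoters were read 250 bases before RefSeq starts. The alternatives are given in the closing section.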

Additional observations from a re-analysis of the deposited data

How the results depend on the processing

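No paired analysis was possible because the groups share no replicate numbers. The number of genes called after ligation, 4 of 7, was 2 with variances that were not moderated and 3 to 5 under an intensity trend, array weights, only the 6 arrays compared, quantile normalization, a filter to genes above the 33rd percentile of rows and the mean of a gene's rows, and 2 to 5 with 1 array left out. In norUDCA-fed CBDL against CBDL it was 0, but 4 with array weights, 2 with the filter on dim rows, 2 without both sham_159 and CBDL_165 (chosen after seeing the data), and 0 to 4 with 1 array left out. Against sham it was 0 under every alternative run. The share of all genes called moved with the setting as well. After ligation it was 21.8% in the main fit, 17.4% without moderation, 16.7% with only the 6 arrays and 32.1% with the filter. With 1 array left out it ran from 17.1% to 20.8%. In norUDCA-fed CBDL against CBDL it was 6.8% in the main fit, 9.57% with array weights, 11.8% with the filter and 0.113% without moderation. There it ran from 1.25% to 9.21% with 1 array left out. Ciita after ligation turned from -0.05 to 0.19 with array weights and 0.32 without both arrays, and ran from -0.35 to 0.34 with 1 array left out. Values that also changed sign with 1 array left out were Ciita in norUDCA-fed CBDL against CBDL (-0.51 to 0.17) and, against sham, H2-DMb1 (-0.25 to 0.102) and H2-Eb1 (-0.07 to 0.36). None of these was called. No detection call was used, and H2-DMb1 and Cd86 are the dimmest of the 7 genes, with means at percentiles 40.5 and 42.8 of all genes.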
